A study of Rattus norvegicus with 6 samples.

Results

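The genes described here are 10 genes of the Notch pathway and of the ephrin-B2 and EphB4 pair, which are used as arterial and venous genes of blood vessels. They were taken by symbol from the 16770 genes of the count table: the receptors Notch1, Notch2 and Notch3, the ligand Jag1, the transcriptional repressors Hes1, Hey1, Hey2 and Heyl, the ligand Efnb2 and the receptor Ephb4. All 10 were found, and 8 passed the filter on low counts. Hey1 and Heyl did not pass it and are described by their counts.

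The study compared RNA from cultured aortic cells of 2 rat strains at 3 months of age, the Wistar Kyoto rat (WKY), a normotensive control strain, and the spontaneously hypertensive rat (SHR). The aorta next to the heart was cut up, the pieces were laid with the inner surface down in culture wells, and the cells were grown in an endothelial medium with serum and growth supplement. Each strain had 3 libraries, and by the labels the third replicate of either strain belongs to batch 2 and the others to batch 1, without saying what a batch was. No other agent or genetic change is given in the labels, and nothing beyond the number per group says that each library came from its own animal. The p-values therefore measure the spread between these libraries, which may be technical.

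Notch receptors are membrane proteins that are cut when a ligand of the Jagged or Delta family on a neighbouring cell binds them. The freed intracellular part enters the nucleus, joins the DNA-binding protein RBPJ and a Mastermind coactivator, and raises transcription of repressors of the Hes and Hey families. In blood vessels Notch signalling is known for arterial identity of the endothelium and, mainly through Notch3, for maturation of smooth muscle. Ephrin-B2 is the classic membrane marker of arterial endothelium, and its receptor EphB4 is the classic marker of venous endothelium.

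Libraries held 18462032 to 19947286 estimated counts each. Levels are given as CPM, counts scaled to a common library size with TMM factors, and a floor of 3 counts, as much as a gene with no read could have for counting error alone, came to 0.151 to 0.187 CPM. Transcript lengths were not used, so levels are compared between libraries and not between genes. Log2 fold changes come from the quasi-likelihood test of edgeR with batch and strain as terms. They are given with their standard error (SE), and a gene is called at a Benjamini-Hochberg adjusted p below 0.05 over 12614 genes.

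The labelled endothelial cell type was checked against 15 endothelial markers, of which 13 were in the table. The defining markers were at or near 0. Cdh5, the endothelial cadherin, was at 0 CPM in 4 of 6 libraries and at most 0.105 CPM in the others, Pecam1 lay between 0.106 and 2.18 CPM, and the VEGF receptor Kdr lay between 0 and 0.936 CPM. The 13 markers summed to 219 to 660 CPM in WKY and 226 to 329 CPM in SHR, most of it Eng, a TGF-beta coreceptor that other vascular cells share (119 to 635 CPM), and Flt1 (7.03 to 79.3 CPM). The fibroblast marker Pdgfra lay between 171 and 456 CPM and the mesothelial marker Msln between 61.3 and 758 CPM, while the leukocyte marker Ptprc was at 0 in all 6 libraries. The cells are therefore called cultured aortic cells below. In RNA from such a bulk culture, fewer cells of a type and less RNA per cell cannot be told apart.

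The 2 libraries of batch 2 stood apart from the other 4 in markers of smooth muscle and of proliferation. The summed level of 9 smooth muscle markers was 783, 890 and 8577 CPM in WKY replicates 1, 2 and 3 and 957, 875 and 2196 CPM in SHR replicates 1, 2 and 3, and 6 of its 8 tested genes rose in batch 2. Myh11, the smooth muscle myosin heavy chain, was at 2.57 to 6.40 CPM in the batch 1 libraries, at 345 CPM in WKY replicate 3 and at 49.2 CPM in SHR replicate 3. The summed level of 8 proliferation genes was 729 to 1015 CPM in batch 1 and 80.7 and 111 CPM in the batch 2 libraries of WKY and SHR, and 8 of 8 fell in batch 2. Over all tested genes edgeR called 21% higher and 22.5% lower in batch 2. Because the batch 2 libraries stood apart, results below are given for each library.

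**Figure D1:**
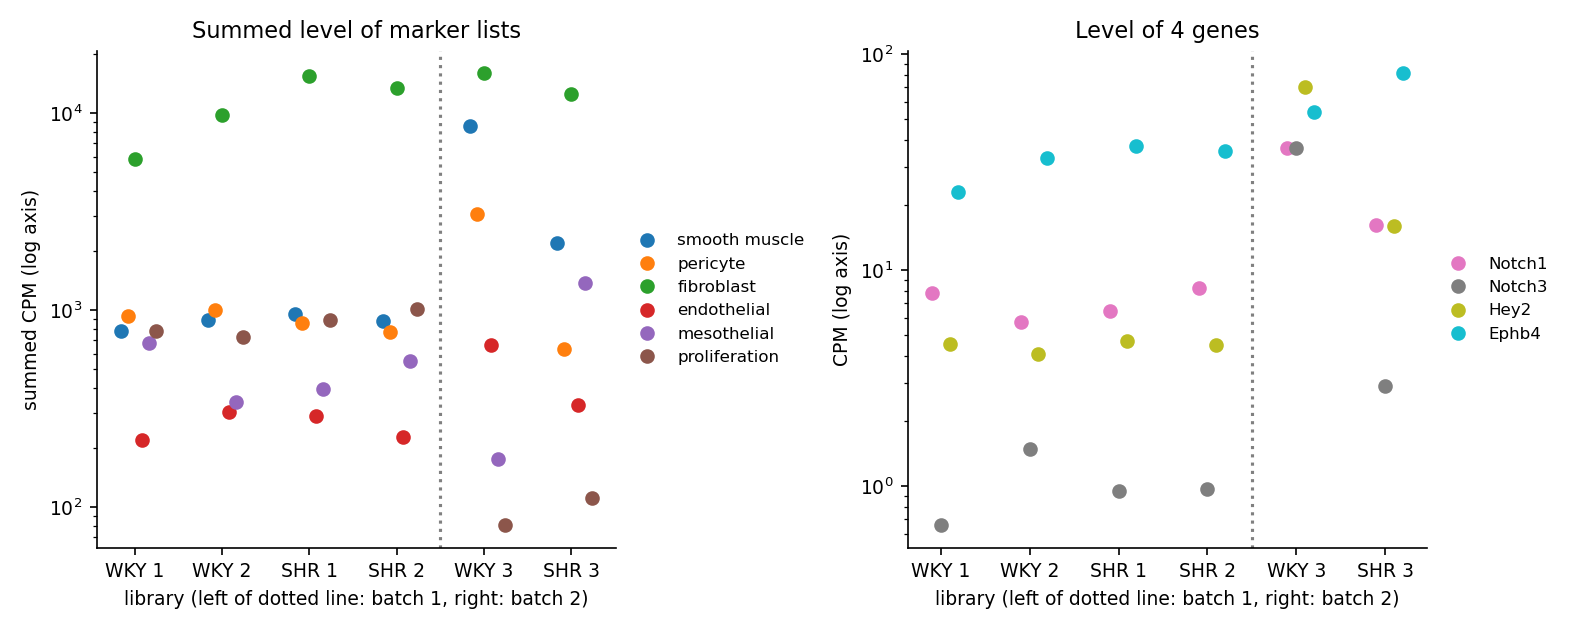
Summed level of 6 marker lists (left) and level of Notch1, Notch3, Hey2 and Ephb4 (right) in each library, in CPM on log axes, with batch 1 left and batch 2 right of the dotted line and points set slightly apart sideways. WKY replicate 3 has the highest point of the smooth muscle list (8577 CPM), of Notch3 (36.7 CPM) and of Hey2 (70.3 CPM). This library also has the highest point of the pericyte, fibroblast and endothelial lists.

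Between the strains, none of the 8 tested genes was called. The edgeR test called 0 of 8, DESeq2 called 0 of 8, and at an unadjusted p below 0.05 edgeR had 1 of 8, Ephb4. Over all tested genes edgeR called 32, or 0.254% (6 with the replicate number as a block), and had 13.3% at an unadjusted p below 0.05, with 6.1% higher and 7.18% lower, and DESeq2 called 5.51%. Neither count of the 8 genes stands out from its background. The median log2 fold change of SHR over WKY was -0.47 over the 8 genes and -0.02 over all genes tested. Without WKY replicate 3, the sign of this difference turned for Notch1, Notch2, Jag1 and Hey2, which then lay between 0.09 and 0.24. The same held without SHR replicate 3. Leaving out either batch 2 library leaves the strain difference to batch 1, so the 2 libraries cannot be told apart here.

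Between the batches, 4 of the 8 tested genes were called, each higher in batch 2: Notch1, Notch3, Hey2 and Ephb4. Over all tested genes 43.5% were called between batches by the same test, 21% higher and 22.5% lower in batch 2. A count of 4 of 8 is close to the share called in either direction. All 4 were higher in batch 2, a direction in which 21% of all genes were called. With 8 genes these counts are descriptions. In 5 of the 8 genes, these 4 and Jag1, both batch 2 libraries lay above the 4 of batch 1, which held for 27.2% of all tested genes. The median log2 fold change of batch 2 over batch 1 was 1.09 over the 8 genes and -0.0015 over all genes. Batch 2 has 1 library of each strain, so this comparison sets 2 libraries against 4. Without WKY replicate 3, batch 2 keeps 1 library. The log2 values were then 1.13 for Notch1, 1.59 for Notch3, 1.79 for Hey2 and 1.14 for Ephb4. With all 6 libraries they were 1.83, 3.70, 3.05 and 1.05.

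**Figure D2:**
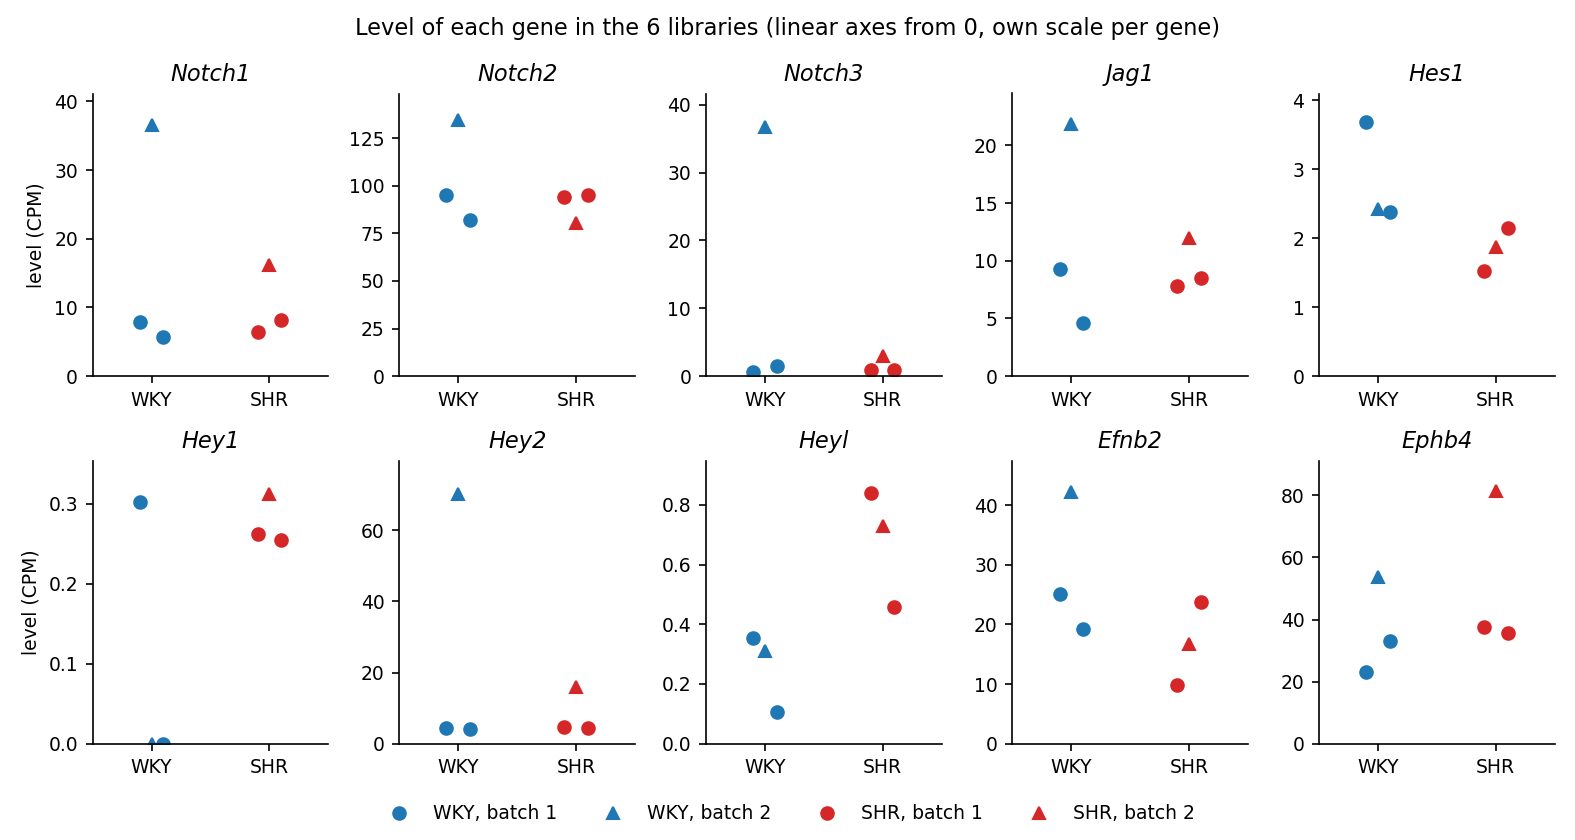
Level of each of the 10 genes in the 6 libraries, in CPM on linear axes that start at 0 with a scale of their own for each gene. Each point is 1 library, with the strain on the x axis and batch 1 and batch 2 as different symbols. For Notch3 and Hey2 the WKY library of batch 2 (36.7 and 70.3 CPM) lies far above the other 5 libraries.

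Notch1 (gene identifier 25496), the receptor best known for arterial specification of endothelium, was at 7.83, 5.76 and 36.6 CPM in WKY replicates 1, 2 and 3 and at 6.46, 8.21 and 16.1 CPM in SHR. Both batch 2 libraries lay above the 4 of batch 1, and the strains overlapped. The batch difference was called (log2 1.83, SE 0.33, adjusted p = 0.00855 by edgeR), with the batch 2 library at 5.38 times the batch 1 mean in WKY and 2.20 times in SHR. Without WKY replicate 3 it was 1.13 with an adjusted p of 0.0546 by edgeR. The strain difference was -0.33 (SE 0.33, adjusted p = 0.704 by edgeR).

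Notch2 (29492), a receptor expressed in many mesenchymal cell types, was at 95.3, 81.9 and 135 CPM in WKY and at 94.1, 95.0 and 80.6 CPM in SHR. The strains and the batches overlapped, with the WKY library of batch 2 highest and the SHR library of batch 2 lowest. Neither strain (log2 -0.18, SE 0.21, adjusted p = 0.734 by edgeR) nor batch (0.21, SE 0.22, adjusted p = 0.47) was called.

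Notch3 (56761), the receptor of vascular smooth muscle and pericytes, was at 0.656, 1.48 and 36.7 CPM in WKY and at 0.945, 0.969 and 2.91 CPM in SHR. These are 13, 28 and 591 counts in WKY and 18, 19 and 56 counts in SHR. One library, WKY replicate 3, held most of the counts, and the SHR library of batch 2 was second. The batch difference was called at log2 3.70 (SE 0.89, adjusted p = 0.0237 by edgeR). It was not called without WKY replicate 3 (1.59, adjusted p = 0.121), without WKY replicate 2 (3.47, adjusted p = 0.0923) or without SHR replicate 2 (3.84, adjusted p = 0.0516), each by edgeR. The strain difference was -1.41 (SE 0.90, adjusted p = 0.561 by edgeR), and in batch 1 the strains overlapped.

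Notch3 was highest in the library in which the smooth muscle markers Myh11 (345 CPM) and Acta2 (3630 CPM) were highest, and second in SHR replicate 3, where Myh11 was at 49.2 and Acta2 at 731 CPM. In batch 1, Acta2, smooth muscle alpha actin, lay between 93.5 and 184 CPM. The pericyte list summed to 3077 CPM in WKY replicate 3, while SHR replicate 3 held 635 CPM and the batch 1 libraries 772 to 997 CPM. Of its 6 genes, 2 did not exceed 3 counts in any library. Between batches edgeR called 0 of its 4 tested genes, against 43.5% of all genes. The order was not particular to smooth muscle. The endothelial list, most of it Eng, summed to 660 CPM in WKY replicate 3 and 329 CPM in SHR replicate 3, against 219 to 305 CPM in batch 1. The fibroblast list was highest in WKY replicate 3 (15886 CPM), with 12485 CPM in SHR replicate 3 and 15448 CPM in SHR replicate 1. The part of these cell types in the level of Notch3 was not tested.

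Jag1 (29146), a ligand of Notch on endothelial and smooth muscle cells, was at 9.29, 4.60 and 21.8 CPM in WKY and at 7.82, 8.51 and 12.0 CPM in SHR. Both batch 2 libraries were above the 4 of batch 1, but the difference missed the threshold (log2 1.13, SE 0.37, adjusted p = 0.0544 by edgeR). It passed under DESeq2 (adjusted p = 0.0182) and, by edgeR, with another library scaling (log2 1.17, adjusted p = 0.0495). The strain difference was -0.14 (SE 0.36, adjusted p = 0.899 by edgeR).

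Hes1 and Hey2 are the repressors of the list that passed the filter, and both are textbook direct targets of the Notch and RBPJ complex. Their promoters are shown together with that of Notch3, the receptor that differed most between libraries. The sequences are the 250 bases before the start of each gene in RefSeq on the GRCr8 rat assembly, read 5′ to 3′ on the strand of the gene. They lie at chr11:84213046-84213295 on the minus strand for Hes1, chr1:28640850-28641099 on the plus strand for Hey2 and chr7:11834586-11834835 on the minus strand for Notch3. Capitals mark each match to the RBPJ core letters TGGGAA, or TTCCCA where the match is on the other strand.
Hes1: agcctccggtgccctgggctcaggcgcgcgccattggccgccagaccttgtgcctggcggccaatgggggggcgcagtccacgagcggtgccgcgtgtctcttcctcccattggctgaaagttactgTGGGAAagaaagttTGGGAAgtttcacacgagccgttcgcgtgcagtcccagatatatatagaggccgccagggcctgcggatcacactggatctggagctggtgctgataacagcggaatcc
Hey2: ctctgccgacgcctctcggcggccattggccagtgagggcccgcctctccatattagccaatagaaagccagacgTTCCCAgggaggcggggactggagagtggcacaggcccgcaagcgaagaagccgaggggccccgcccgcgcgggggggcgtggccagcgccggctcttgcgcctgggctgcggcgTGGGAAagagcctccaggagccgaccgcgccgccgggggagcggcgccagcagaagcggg
Notch3: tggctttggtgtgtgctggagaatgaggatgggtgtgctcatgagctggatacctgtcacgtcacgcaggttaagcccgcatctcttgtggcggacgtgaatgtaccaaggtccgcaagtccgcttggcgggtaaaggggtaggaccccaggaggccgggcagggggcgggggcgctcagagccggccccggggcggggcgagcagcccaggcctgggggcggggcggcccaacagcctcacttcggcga
Of the 10 genes, 9 had a promoter entry, all but Hey1, and 2 of these 9, Hes1 and Hey2, held a core match. Over 33469 RefSeq promoters of the same length, 22.1% held the core letters on either strand, so 2 of 9 is near that background. In Hes1 the matches lay 123 to 118 and 109 to 104 bases before the start, both on the strand of the gene. In Hey2 they lay 175 to 170 bases before the start on the other strand and 60 to 55 bases before it on the strand of the gene. Each of these promoters also held 1 match to the longer letters GTGGGAA, searched on both strands, which includes a core match and was found in 5.27% of promoters. A match is a description of letters and not a measured binding site.

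Hes1 (29577) was low in every library, at 3.69, 2.38 and 2.43 CPM in WKY and at 1.52, 2.14 and 1.87 CPM in SHR. The 3 SHR libraries lay below the 3 WKY libraries, a pattern found in 5.3% of all tested genes. The exact two-sided permutation p was 0.1, the smallest that 3 against 3 libraries can give. The fitted strain difference was -0.61 (SE 0.35, adjusted p = 0.519 by edgeR) and was not called. Between batches Hes1 differed by -0.14 (SE 0.38, adjusted p = 0.774 by edgeR), with overlapping batches.

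Hey2 (155430), the repressor most tied to arterial fate and also present in vascular smooth muscle, was at 4.54, 4.07 and 70.3 CPM in WKY and at 4.67, 4.49 and 16.0 CPM in SHR. The 4 batch 1 libraries lay close together in both strains, and both batch 2 libraries lay far above them. The batch difference was called at log2 3.05 (SE 0.51, adjusted p = 0.0076 by edgeR). It was called in all 14 alternatives run, with log2 values from 1.79 to 4.03, the lowest without WKY replicate 3. The strain difference was -0.67 (SE 0.50, adjusted p = 0.615 by edgeR). As for Notch3, the highest level was in WKY replicate 3. There the summed levels of the smooth muscle, pericyte, endothelial and fibroblast markers were highest. Those of the proliferation genes and the mesothelial markers were lowest there. The part of any of these in this result was not tested.

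Hey1 (155437), a repressor close to Hey2, had 6, 0 and 0 counts in WKY and 5, 5 and 6 counts in SHR. These values are near the floor of 3 counts, and a strain difference was not detectable at this depth. Heyl (313575), the Hey relative known from smooth muscle, had 7, 2 and 5 counts in WKY and 16, 9 and 14 counts in SHR. The 3 SHR libraries lay above the 3 WKY libraries, at 0.459 to 0.840 CPM against 0.106 to 0.353 CPM, with an exact permutation p of 0.1, the smallest possible. Higher in all SHR libraries held for 4.51% of the tested genes, a set that leaves out Heyl and other genes with counts too low for the filter. In a fit without the filter on low counts, the strain difference of Heyl was log2 1.39 (SE 0.70, adjusted p = 0.508 by edgeR).

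Efnb2 (306636), the arterial ligand, was at 25.0, 19.2 and 42.3 CPM in WKY and at 9.82, 23.8 and 16.7 CPM in SHR. WKY replicate 3 was highest and SHR replicate 1 lowest, and SHR replicate 2 lay above WKY replicate 2, so the strains overlapped. The strain difference was -0.71 (SE 0.40, adjusted p = 0.512 by edgeR) and the batch difference 0.49 (SE 0.41, adjusted p = 0.376 by edgeR). Leaving out 1 replicate at a time, the strain value stayed negative and lay between -1.24 and -0.39.

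Ephb4 (686310), the receptor of ephrin-B2, was at 23.0, 33.0 and 53.7 CPM in WKY and at 37.5, 35.7 and 81.4 CPM in SHR. Within each batch both or the single SHR library lay above the WKY libraries. The strain difference of log2 0.46 (SE 0.17) had the smallest p of the 8 genes, 0.0381 before and 0.357 after adjustment in edgeR. It stayed positive in the 17 alternatives run, between 0.31 and 0.64, with adjusted p from 0.193 to 1. Batch 2 was higher at log2 1.05 (SE 0.17, adjusted p = 0.00672 by edgeR), by 1.92 times in WKY and 2.23 times in SHR. This call held in the 14 alternatives run, and without WKY replicate 3 the value was 1.14.

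**Figure D3:**
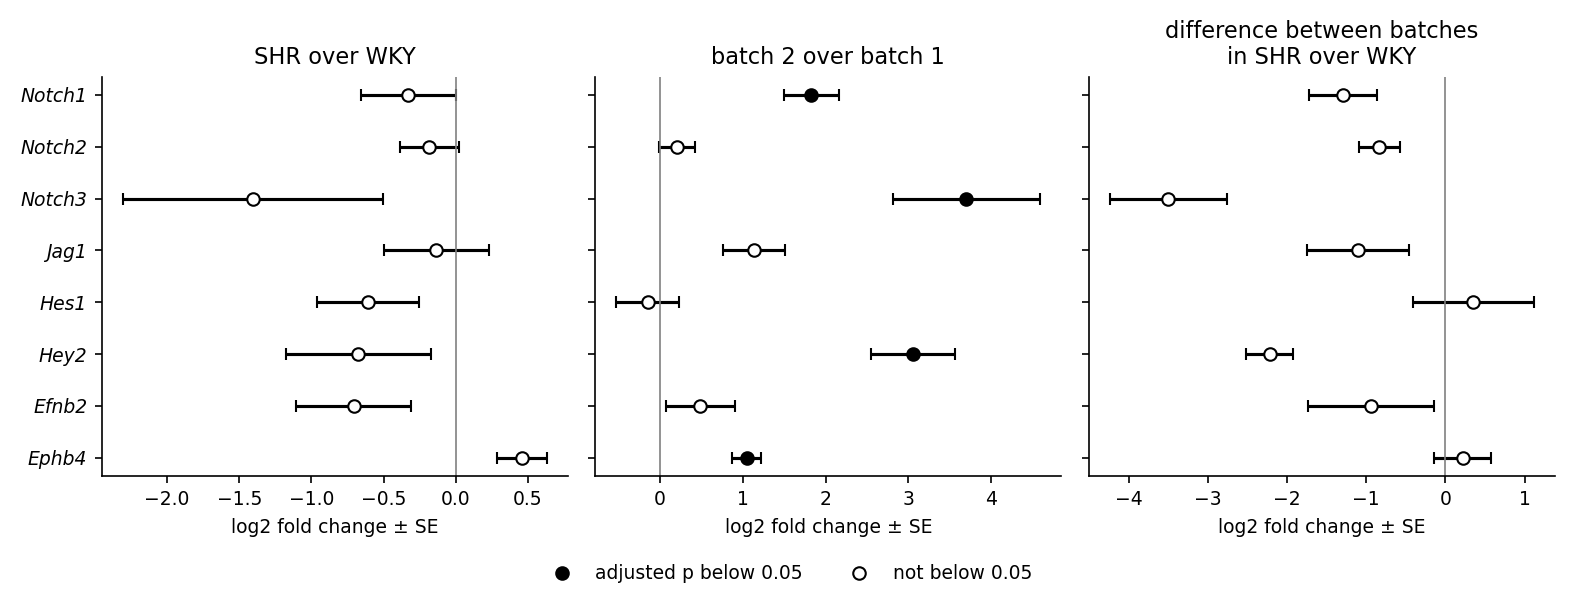
Log2 fold change with its SE for the 8 tested genes, for SHR over WKY, for batch 2 over batch 1 and for the difference between batches in the strain effect. Filled points have an adjusted p below 0.05 by edgeR. Filled points appear for Notch1, Notch3, Hey2 and Ephb4 in the batch comparison, and the other 2 panels hold open points.

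Whether the strain difference itself differed between batches was tested with an interaction term, with 1 library per strain in batch 2 and 2 residual degrees of freedom from batch 1. No gene of the 12614 was called by edgeR, which is 0%. At an unadjusted p below 0.05 the strain difference was lower in batch 2 for 4 of the 8 genes, Notch1, Notch2, Notch3 and Hey2, against 7.22% of all tested genes. Hey2 had an interaction of log2 -2.22 (SE 0.30, adjusted p = 0.147 by edgeR) and Notch3 of -3.50 (SE 0.74, adjusted p = 0.225 by edgeR). DESeq2 called these 2 of the 8, Hey2 with an adjusted p of 0.00195 and Notch3 with 0.0121, and called 3.65% of all genes.

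In levels, WKY replicate 3 had 4.39 times the Hey2 and 12.6 times the Notch3 of SHR replicate 3, while in batch 1 the strains overlapped for both genes. The ratio of the batch 2 library to the batch 1 mean was 16.3 in WKY and 3.50 in SHR for Hey2, and 34.4 and 3.04 for Notch3. For Ephb4 the ratios were 1.92 and 2.23, and its interaction was 0.22 (SE 0.36, adjusted p = 0.849 by edgeR). The interaction rests on a single library per strain in batch 2, and library and strain cannot be told apart there.

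**Figure D4:**
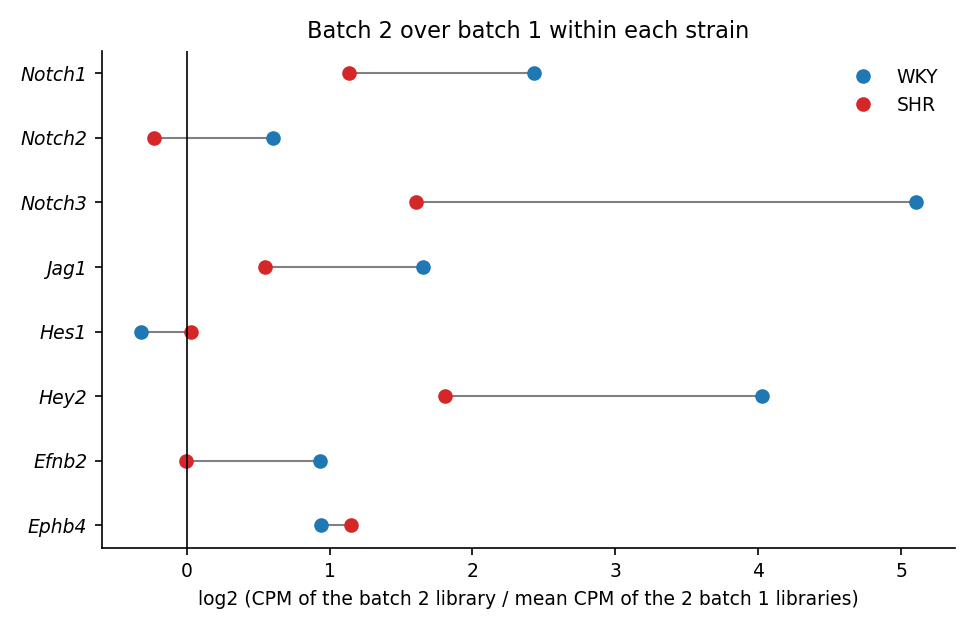
Log2 of the batch 2 level over the mean of the 2 batch 1 levels, within each strain, for the 8 tested genes. Each point rests on 3 libraries of 1 strain. The WKY point lies farthest right for Notch3 (34.4 times) and Hey2 (16.3 times), and the strains lie close together for Ephb4 (1.92 and 2.23 times).

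The other genes of both pathways were taken from 11 lists of 99 genes, 92 of them in the table and 72 tested, the 8 genes above included. Between strains edgeR called 0 of 72, with a median log2 fold change of -0.06. Without adjustment, 10 were higher in SHR and 5 lower at p below 0.05, against 6.1% and 7.18% of all genes. DESeq2 called 5 of 72, against 5.51% of all genes. Between batches 27 were higher and 1 was lower, with a median of 0.59, against 21% higher and 22.5% lower over all genes. Without WKY replicate 3, which leaves 1 library in batch 2, the median was 0.61 over 73 tested genes of the lists and -0.0085 over all genes.

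Among the receptors, Notch4, which is largely endothelial, was also called between batches. It was at 5.35, 2.91 and 27.4 CPM in WKY and at 2.94, 2.86 and 13.6 CPM in SHR, with a batch difference of log2 2.49 (SE 0.29, adjusted p = 0.00259 by edgeR). Of the 4 receptors 3 rose in batch 2. Their median log2 fold change was 2.16, and 1.36 without WKY replicate 3. The ligands Jag2 (0 to 1.04 CPM) and Dll1 (0.0525 to 0.56 CPM) were too low to be tested, and Dll4 was not analysed here.

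In the nuclear complex several cofactors rose in batch 2, while the DNA-binding subunit was not called. Rbpj, that subunit, was at 240, 356 and 270 CPM in WKY and at 205, 259 and 387 CPM in SHR, with overlapping strains and batches and a batch difference of 0.32 (SE 0.28, adjusted p = 0.397 by edgeR). Of the 11 genes of this list, 7 rose in batch 2, and 6 of 11 without WKY replicate 3. The smallest adjusted p values were those of Maml1, a Mastermind coactivator (log2 1.35, adjusted p = 0.00168), Ep300, a histone acetyltransferase (1.49, 0.00186), and Spen, a corepressor (1.25, 0.0026), each by edgeR. Maml1 was at 26.2 to 32.0 CPM in the batch 1 libraries and at 70.9 CPM in WKY replicate 3 and 71.4 CPM in SHR replicate 3.

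With all 6 libraries, the counts per list by edgeR stand against 21% of all genes called higher in batch 2 and 22.5% lower. With 1 batch 1 replicate left out, edgeR called 1956 to 2346 genes higher and 2155 to 2461 lower, of 12878 to 12978 tested. DESeq2 called 3271 higher and 3164 lower of 12614. These backgrounds hold for the receptors and the nuclear complex above and for the lists that follow. With lists this short the counts per list are descriptions. Of the 8 tested genes of receptor cleavage, 3 were called higher: Furin, the protease of receptor maturation (log2 0.84, adjusted p = 0.0057), Psen2 (1.39, 0.0145) and Psenen (0.90, 0.0323), both of the gamma-secretase complex. Without SHR replicate 2 it was 1 of 8, Furin. The median log2 fold change of these 8 genes was 0.15, and 0.32 without WKY replicate 3. The sheddases Adam10 (batch log2 -0.24, adjusted p = 0.565) and Adam17 (-0.21, 0.588) were not called. Of 12 genes of trafficking and turnover, 4 were called higher, a count that was 4 in each fit with a replicate left out, led by the E3 ligase Dtx3 (1.25, adjusted p = 0.0017) and the endocytic adaptors Numb (1.41, 0.00216) and Numbl (1.40, 0.00235). With all 6 libraries, Poglut1, which adds glucose to Notch repeats, was the single listed gene that edgeR called lower in batch 2 (-0.88, adjusted p = 0.00983). It lost its call without SHR replicate 3 (-0.66). The number called lower varied with the fit, at 2 of 73 by edgeR without WKY replicate 2 and 2 of 72 by DESeq2. It was larger than these without SHR replicate 3, a fit that leaves 1 library in batch 2. The median log2 fold change over the lists was 0.60 in that fit. These p values are from edgeR.

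Of the 4 tested Hes and Hey genes, Hey2 and Hes7 were called higher in batch 2. Hes7, a repressor of the segmentation clock, was low, at 0.317 to 0.840 CPM in batch 1 and at 2.61 and 2.03 CPM in the batch 2 libraries of WKY and SHR (log2 1.94, adjusted p = 0.0222 by edgeR). The call of Hes7 was lost when either WKY or SHR replicate 1 or 2, or WKY replicate 3, was left out, with adjusted p from 0.0568 to 0.169 by edgeR. Hes6 stayed between 21.3 and 28.9 CPM in the 6 libraries, with a batch difference of -0.05 (adjusted p = 0.852 by edgeR).

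Of the 6 tested ephrin ligands 1 was called between batches, Efna2 (log2 1.62, adjusted p = 0.0336 by edgeR, at most 3.95 CPM), and of the 8 tested Eph receptors 2, Ephb4 and Ephb6. Each was called higher in batch 2, against 21% of all genes called higher and 43.5% called in either direction. Efna2 kept its call in 1 of the 6 fits with a replicate left out, that without WKY replicate 1. Ephb6, a receptor without kinase activity, was at 6.82, 7.72 and 44.8 CPM in WKY and at 4.57, 4.74 and 23.8 CPM in SHR, with a batch difference of log2 2.49 (SE 0.15, adjusted p = 0.000922 by edgeR).

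Of 9 tested other arterial genes, 4 were called higher in batch 2, against 21% of all genes. The count was 2 of 9 without SHR replicate 1 or without SHR replicate 2, and 6 of 9 by DESeq2. Over all genes those fits called 2128 of 12978, 1956 of 12955 and 3271 of 12614 higher. The 4 arterial genes were led by Mecom (log2 1.67, adjusted p = 0.00403), Sox7 (2.82, 0.00529) and the connexin Gja4 (1.34, 0.0278), by edgeR. Gja4 kept its call in 1 of the 6 fits with a replicate left out, that without SHR replicate 3. Of 3 tested venous genes 1 was called, the transcription factor Nr2f2, which rose from 57.3 to 153 CPM in batch 1 to 302 CPM in WKY and 295 CPM in SHR (1.44, adjusted p = 0.0323 by edgeR). Nr2f2 was not called when SHR replicate 2 (adjusted p = 0.0927), SHR replicate 3 (0.112) or WKY replicate 3 (0.188) was left out. Between strains edgeR called 0 of the 9 arterial and 0 of the 3 venous genes, against 0.254% of all genes. At an unadjusted p below 0.05 by edgeR, 1 arterial gene was higher and 3 lower, and 1 venous gene was lower. Over all genes 6.1% were higher and 7.18% lower by that cut. DESeq2 called 2 of the 9 arterial genes lower, Gja5 and Unc5b, against 5.51% of all genes called in either direction.

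**Figure D5:**
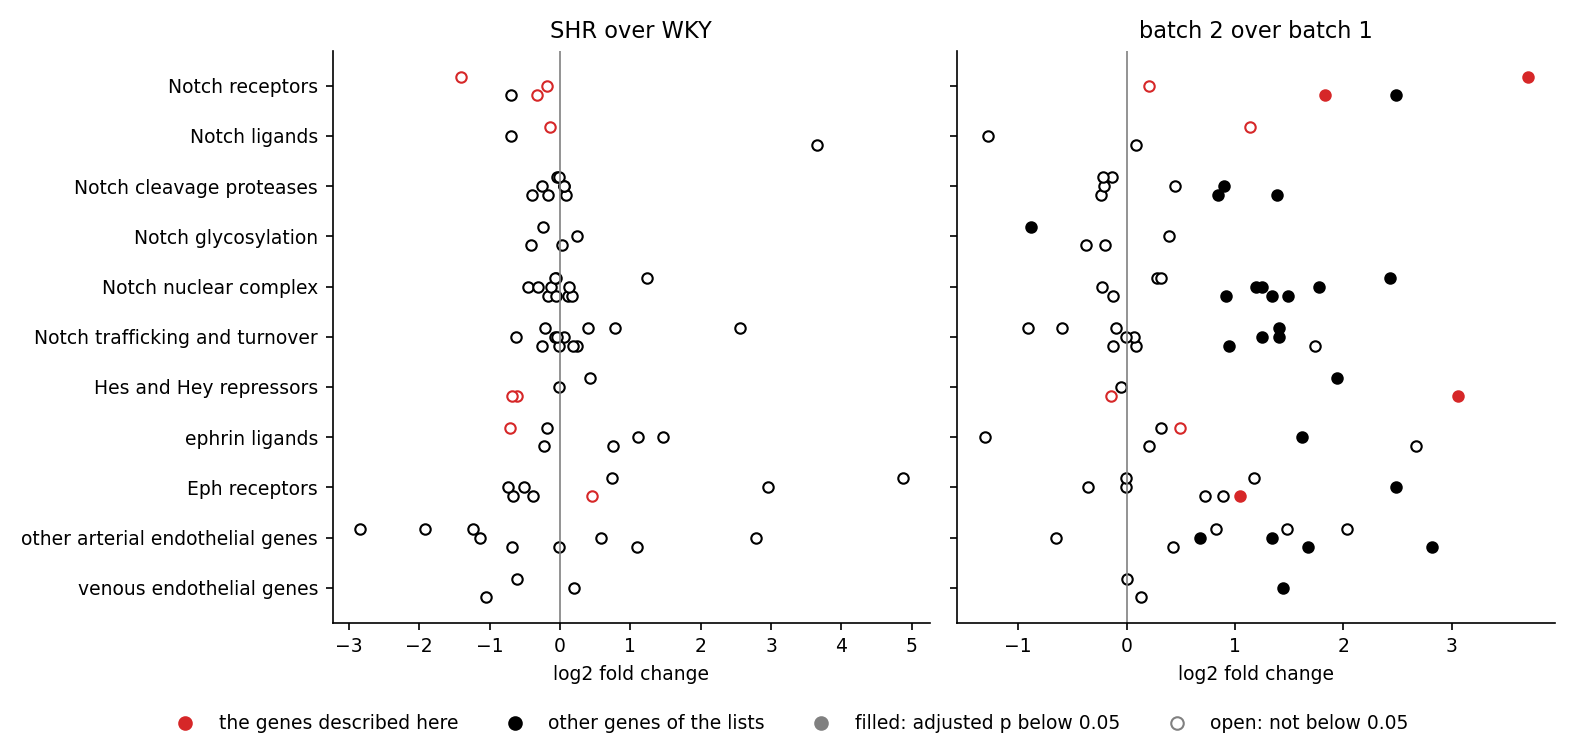
Log2 fold change of each tested gene of the 11 lists, for SHR over WKY and for batch 2 over batch 1. Each point is 1 gene, with the genes described here in red and filled points at an adjusted p below 0.05 by edgeR. The strain panel has no filled point, and the batch panel has 27 filled points above 0 and 1 below, the latter in the glycosylation list.

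Genes of like pattern were ranked by Pearson's r of log2 CPM over the 6 libraries, among 10485 genes that averaged 5 CPM or more. With 6 libraries and 2 of them apart, such an r is a description that the batch 2 libraries largely set. Nearest to Notch1 were Otud1 (0.995), Dlg5 (0.995) and Rai1 (0.994), and nearest to Hey2 were Arhgap35, Desi1 and Crebbp (each 0.997). Among the genes nearest to Notch3 were Ppp1r11 (0.998) and Mea1 (0.996), and nearest to Ephb4 were Adam9 (0.998), Rps15 (0.997) and Rplp0 (0.996). Both genes named for Notch3 spanned a smaller range than Notch3 did, with Ppp1r11 between 57.9 and 110 CPM and Mea1 between 82.6 and 170 CPM.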

How the data were processed

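RNA of cultured aortic cells from 2 rat strains was sequenced in 6 libraries, 3 per strain. The authors deposited estimated counts per gene, not normalized, and a second table of log2 values whose batch means were equal in every gene. The log2 values, whose making no source used here describes, served 1 alternative. The submitters' processing notes name Rnor_6.0 as the build and, without saying what each did, DESeq2 1.42.1, RSEM 1.2.28 and Bowtie2 2.4.4. Whether counting used strand, and how similar gene copies were treated, is not given there. Values were rounded, since 8.96% of them were not whole (tolerance 0.001). Of 16770 genes, 16193 had a count.

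The filterByExpr function of edgeR 4.0.16 (R 4.3.3) left 12614 genes by strain, libraries were scaled by TMM factors (0.87 to 1.07), and the quasi-likelihood test was run with batch and strain as terms (3 residual degrees of freedom), two-sided, with Benjamini-Hochberg adjustment. An SE is the log2 fold change over the root of F. DESeq2 1.42.0 and limma 3.58.1 were alternatives, as were other scalings and filters, unrounded counts, each replicate left out, no batch term, a replicate block and batch 1 alone. The code was tested on simulated data. Chi-square statistics between libraries were 46.7 or more per gene, so no library was a duplicate.

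The 10 genes and the lists were chosen with earlier results of these data known. By the rule for named genes, the 10 are described in full, and of other listed genes those called (up to 3 per list and comparison, by smallest adjusted p) and Notch4, Jag2, Dll1, Dll4 and Rbpj are named, with the 3 genes of most like pattern for called genes and the defining markers. One gene of like pattern is not reported here. Adam10, Adam17 and Hes6 were added after their values were seen. Of the 99 pathway genes 7 were not matched by symbol and of 62 marker genes 2, and these were not analysed here. Replicate numbers are tied to batch in the labels. Same-numbered libraries of the strains deviated together from their strain means (r of 0.30, 0.40 and 0.66 across genes, which are not independent replicates). Within batch 1 the differently numbered libraries did so more strongly, with r of 0.49 for WKY replicate 1 with SHR replicate 2 and 0.48 for WKY replicate 2 with SHR replicate 1. The same-numbered values therefore do not show a pairing within batch 1. There the difference between replicates 1 and 2 correlated at -0.20 between strains. The numbers were taken to pair libraries through the batch. Promoter sequences and names came from RefSeq tables of the GRCr8 assembly, which differs from the build in the notes.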

Additional observations from a re-analysis of the deposited data

How the results depend on the processing

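No alternative gave a strain call for any of the 8 tested genes, over 17 alternatives with edgeR, DESeq2 and limma. Genes called between strains over the whole table, 32 in the report, were 695 by DESeq2, 50 by limma on the deposited log2 values, 2 without the batch term and 6 with a replicate block (2 residual degrees of freedom). With 1 replicate left out they were 0 to 65: 0 without SHR replicate 1 or SHR replicate 2, 4 without WKY replicate 1, 65 when WKY replicate 2 was dropped and 20 when WKY replicate 3 was. The replicate block left the 8 genes at 0 strain calls. With 1 replicate left out, the strain difference ranged from -0.58 to 0.11 for Notch1, -0.33 to 0.10 for Notch2, -0.49 to 0.24 for Jag1 and -0.9998 to 0.090 for Hey2. It was positive for these 4 genes when a batch 2 library was left out, and in batch 1 alone it was 0.11, 0.091, 0.23 and 0.085. For Jag1 it was also positive without WKY replicate 1 (0.05).

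The 4 genes called between batches became 2 to 5 with 1 replicate left out. The batch difference then ranged from -0.24 to 0.60 for Notch2, -0.32 to 0.020 for Hes1 and -0.017 to 0.93 for Efnb2. It passed the threshold without SHR replicate 2 for Efnb2 (adjusted p = 0.0333 by edgeR) and without SHR replicate 3 for Jag1 (1.65, adjusted p = 0.0426 by edgeR). For the interaction, 0 genes by edgeR became 4 without the filter on low counts, 451 by DESeq2, 7 by limma and 0 to 248 with a batch 1 replicate left out. Of the 8 genes, DESeq2 called 2, and leaving out a replicate gave 0 to 1, with Notch3 called when WKY replicate 2 was dropped (-4.21, adjusted p = 0.033 by edgeR). The interaction then ranged from -0.0057 to 0.62 for Hes1 and from -0.078 to 0.44 for Ephb4. It cannot be fitted without a batch 2 library. In alternatives chosen after seeing the data, pathway list genes called between strains were 5 by DESeq2 and 0 to 2 with 1 replicate left out, and those called between batches were 20 to 34, against 28. The causes of these changes were not tested. Hey1 and Heyl had too few counts to pass the filter at this depth.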

Other observations

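The genes of the pathway lists that DESeq2 called between strains were Epha3, Ephb2, Ephb6, Gja5 and Unc5b, named here after their values were seen. Epha3, an ephrin-A receptor, was at 0.0505, 0.37 and 0.0622 CPM in WKY replicates 1, 2 and 3 and at 3.83, 2.50 and 13.0 CPM in SHR, and Ephb2, an ephrin-B receptor, was at 2.37, 3.81 and 0.746 CPM in WKY and at 17.0, 11.3 and 21.8 CPM in SHR. In both genes the 3 SHR libraries lay above the 3 WKY libraries, as in 4.51% of all tested genes. By edgeR the adjusted p was 0.166 for Epha3 and 0.203 for Ephb2, and by DESeq2 2.4e-05 and 6e-05. Without WKY replicate 2, edgeR called Epha3 (log2 6.76, adjusted p = 0.0423).

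Gja5, an arterial connexin, was at 645, 223 and 568 CPM in WKY and at 56.0, 92.5 and 377 CPM in SHR, and Unc5b, a netrin receptor of arterial endothelium, was at 488, 212 and 610 CPM in WKY and at 143, 152 and 264 CPM in SHR. Their strain values were log2 -1.91 (adjusted p = 0.332) and -1.23 (adjusted p = 0.241) by edgeR, and the libraries of the strains overlapped in both. Dlk1, a Notch ligand relative without the usual receptor-activating domain, was at 1.87, 32.9 and 2.61 CPM in WKY and at 94.2, 102 and 290 CPM in SHR. WKY replicate 2 lay apart from the other WKY libraries, and edgeR called Dlk1 without it (adjusted p = 0.0411) and not with it (adjusted p = 0.376).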
